A study of Sus scrofa with 16 samples.

Results

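The ribosomal protein genes of the pig small intestine were followed through 4 single-cell RNA-sequencing libraries. They were taken as every feature whose deposited gene symbol begins with RPL or RPS and a digit, together with RPLP0, RPLP1, RPLP2 and RPSA where present, and without the RPS6K kinases. The rule reads symbols and no measured value. The rule found 46 of 25880 features. Of these, 19 encode proteins of the large ribosomal subunit and 19 proteins of the small subunit, 5 are paralogues (RPL3L, RPL7L1, RPL10L, RPL26L1 and RPL36AL), 2 are read-through loci (RPL17-C18orf32 and RPS10-NUDT3) and 1 is a binding protein, RPS19BP1. The intestine came from female mixed-breed pigs aged 7.5 weeks, and the groups compared are the 4 places where it was cut: duodenum just behind the pylorus (DUOD), jejunum (JEJ), ileum that carried Peyer's patches (IPP) and ileum free of them (NoPP). Epithelium and the lymphocytes lying in it were released with DTT and EDTA, purified on Percoll and run on 10x 3′ v3 chemistry. No genotype or treatment separates the groups. The labels list 4 samples per region, but each region is 1 matrix in which all barcodes carry the same suffix, so each region is 1 sample. There is therefore no replicate error, and every interval covers counting error only.

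A ribosome is built from a small subunit, which reads the mRNA, and a large subunit, which forms the peptide bond; each subunit holds one copy of most of its proteins. The mRNAs of these proteins begin with a run of pyrimidines, the 5′ terminal oligopyrimidine tract, through which growth signalling by mTORC1 sets their translation as a group, and mRNAs of elongation factors share that tract. In the gut, ribosome production is known to be high in dividing crypt cells and activated lymphocytes, while a mature enterocyte spends much of its mRNA on digestive enzymes, transporters and lipid-binding proteins.

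The measure used throughout is the ribosomal share, the percentage of a group's UMIs (unique molecular identifiers, each 1 captured mRNA molecule) that fell on the 46 genes. Counts for single genes are given as CPM, the UMIs of the gene scaled to counts per 1000000 UMIs of the group. The share is a lower bound for the family. Of the 79 proteins of the cytosolic ribosome, 38 had a feature with a deposited symbol. Another 17 could be named only through a separate gene name table. The other 24, among them RPL13, RPL19, RPL32 and RPS19, matched no feature by that exact name. RPL17 and RPS10 are counted among the 24, although the read-through loci RPL17-C18orf32 and RPS10-NUDT3 are members and enter the share. Ribosomal protein genes also have many near-identical processed copies, and single-gene values are uncertain where reads matched several loci, since their counting is not given in the sources used here. Levels are compared between cell groups, not between genes.

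The 4 matrices held 44726845 to 91813234 UMIs. The limits of 1000 UMIs, 500 genes and 25% mitochondrial UMIs were met by 7182 barcodes. Predicted doublets were then removed, as were 121 NoPP barcodes whose count elsewhere was 10 or more times higher, which left 6926 cells. Median depth was 3651 to 4412 UMIs per cell. Among barcodes within the limits, 116 occurred in 2 or more libraries, and 6 still did among the kept cells. Cells were clustered without mitochondrial genes and without ribosomal protein genes known by symbol or name table. The genes that make up the ribosomal share thus did not set the cell groups. Features without a name, and the other genes of protein synthesis described below, stayed in. Clusters were called after markers, such as APOA4 and FABP2 for enterocytes or CD3E for T cells. The enterocyte-like clusters each had between 9 and 12 of the enterocyte markers detected. One duodenal cluster of 58 cells counted as enterocyte-like had none of them among its leading genes. One epithelial cluster, led by SPAI-2, PIGR, SPINK1, OLFM4 and LYZ, had as many crypt as goblet markers among its leading genes, was therefore given no cell type, and is called the OLFM4 cluster.

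T cells gave a 2.97 to 5.64 times larger part of their UMIs to the ribosomal protein genes than enterocytes did. In T or ILC-like cells (T cells or innate lymphoid cells) the ribosomal share was 13.8% for the 395 cells of DUOD, 13.3% for the 626 of JEJ, 13.2% for the 1573 of IPP and 12.4% for the 1724 of NoPP. In enterocyte-like cells it was 4.52% for the 218 cells of DUOD (exact 95% binomial interval 4.51 to 4.54%) and 4.49% for the 212 of JEJ (4.46 to 4.51%). In the ileum it was 2.33% for the 164 cells of IPP (2.31 to 2.35%) and 3.19% for the 42 of NoPP (3.14 to 3.24%). The T-cell share was 3.06, 2.97, 5.64 and 3.88 times the enterocyte share, with the regions in that order. At a 10% mitochondrial limit the NoPP gap was smaller, 13.6% against 7.07%. The middle 50% of single cells lay apart in IPP, between 9.91 and 15.6% for T or ILC-like cells and between 1.80 and 2.99% for enterocyte-like cells. The full ranges of the 2 classes overlapped in every region. In IPP they were 0.787 to 28.9% and 0.719 to 9.98%.

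B-like cells were higher again: their share was 15.3% in IPP (1146 cells), 15.1% in NoPP (57 cells) and 16.9% in JEJ (12 cells), or 1.16, 1.22 and 1.27 times that of the T or ILC-like cells of the same library. Antibody-secreting cells, the plasma cell lineage that B cells give rise to, stood at 9.45% in IPP (85 cells), 0.619 times the B-like share; their cluster had dividing markers as well. The 10 most counted genes outside the 46 and the mitochondrial genes took 29.0% of their UMIs. Without those 10 and the mitochondrial genes the share was 15.2% against 18.3% in B-like cells. Myeloid-like cells ranged from 10.4% in DUOD through 9.54% in IPP to 6.03% in NoPP. These 3 values rest on different cells: 103 of the 111 NoPP cells belonged to 1 cluster led by ADAMDEC1, RETN, AIF1 and LYZ, whose share was 5.51% over all regions, whereas a macrophage-type cluster led by CST3, APOE and C1QA was at 10.4%.

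The differentiated epithelial classes had the lowest shares. Goblet-like cells, which secrete mucin, were at 2.96% in JEJ, 2.55% in IPP and 3.08% in NoPP. Enteroendocrine-like cells, which release gut hormones, were at 4.30, 5.23, 3.40 and 3.52% from DUOD to NoPP, and their clusters spread from 2.83% for the one led by NTS, PYY and GCG to 5.90% for the one led by CCK, SCT and GAST. BEST4-positive cells of JEJ had 4.26% of their UMIs on ribosomal protein genes when pooled, but the median cell had 2.47%. Without mitochondrial genes and the 10 most counted others, enteroendocrine-like cells were at 8.96% in DUOD, above the enterocyte-like 7.12%, and at 6.15% in IPP, and goblet-like cells of IPP were at 4.19%. The OLFM4 cluster was the exception among epithelial cells. It reached 12.6% in JEJ (31 cells, 12.5 to 12.7%) and 10.6% in NoPP (11 cells), which is 0.944 and 0.859 times the share of T or ILC-like cells there. In JEJ this order turned when cells counted equally, with a mean of 14.8% against 12.8% and a median of 15.8% against 12.4%, and at a 10% mitochondrial limit, with 16.4% against 14.8%.

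**Figure D1:**
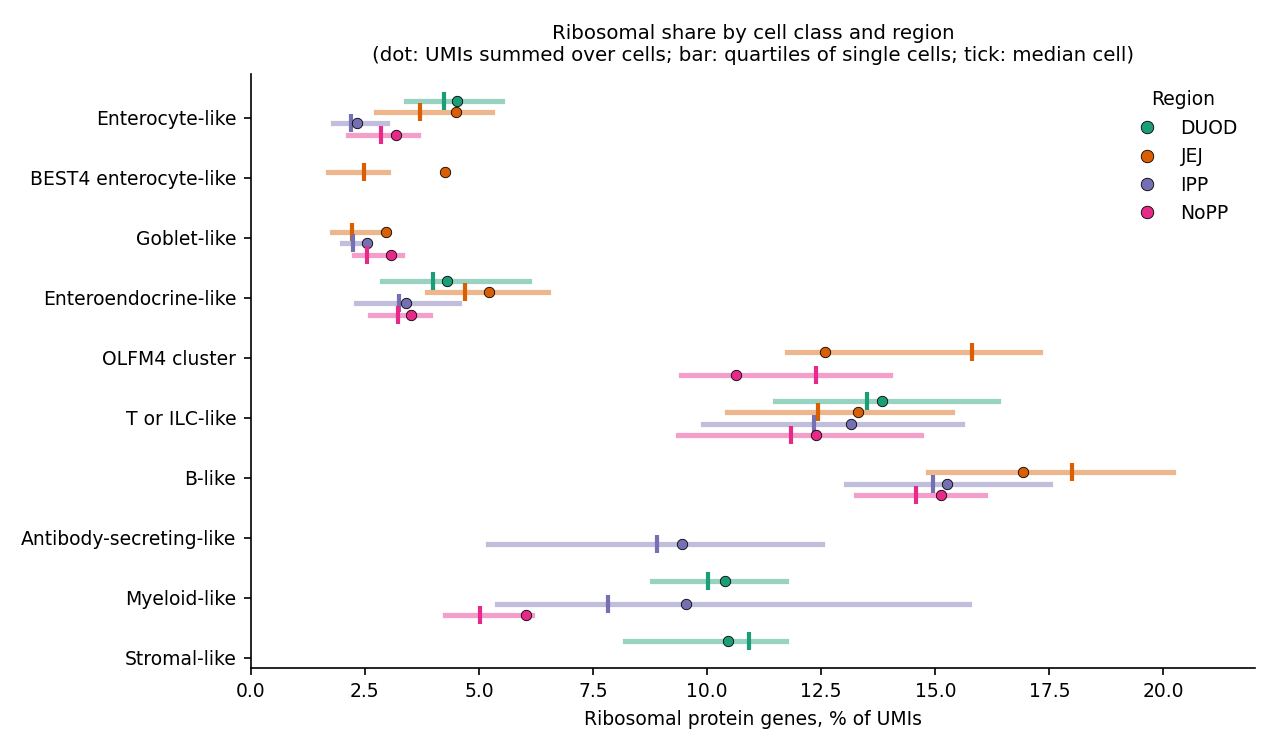
Ribosomal share (percent of UMIs, horizontal axis) of each cell class, coloured by region: the dot is the share of the UMIs summed over cells, the bar the quartiles of the single cells and the tick the median cell. Dots of enterocyte-like cells sit between 2.33 and 4.52%, those of T or ILC-like cells between 12.4 and 13.8%, and the OLFM4 cluster lies beside the lymphocytes.

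The make-up of the rest of the transcriptome moved with this contrast. The 10 most counted other genes took 21.7 to 27.8% of enterocyte UMIs, and mitochondrial genes took 13.8 to 17.5%. With mitochondrial genes and those 10 genes left out of each class's total, the share was 7.12, 6.99, 4.26 and 5.57% in enterocyte-like cells of DUOD, JEJ, IPP and NoPP against 17.7, 16.8, 16.6 and 15.7% in T or ILC-like cells. For each class and region its own 10 genes were left out. They were taken from outside the 46, so ribosomal protein genes named only by the table could be among them. RPLP1 was one of them in T or ILC-like cells of IPP, at 9940 CPM where the 10 took 9.72% of UMIs. The part of these 10 and of the mitochondrial genes in the result beyond these values was not tested.

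Within the lymphocytes, the T or ILC-like clusters spanned 8.99 to 15.8%, a wider range than the 12.4 to 13.8% of that class over the regions. Cluster 0, led by GNLY, GZMA and GZMB, genes of cytotoxic granules, had 10.0% over all regions, and 9.72 to 11.6% in the single regions. Cluster 2, led by CCL5 and TRDC, the constant chain of the delta T-cell receptor, had 15.5%, with 15.1% in NoPP, 15.4% in IPP and 16.6% in JEJ. Cluster 12, led by TIMP1, LTB, IL7R and IL22, had 15.8%, and cluster 8, led by CCR7, S1PR1 and KLF2, receptors and a transcription factor of recirculating T cells, had 15.7%. Cluster 21, which combined GNLY and GZMB with the markers of dividing cells, was the lowest lymphocyte cluster at 8.99%. In clusters 0, 2, 4 and 12, which had enough cells in all 4 regions, DUOD and JEJ were both above IPP, and IPP above NoPP. Clusters 19 and 21 did not follow this order: cluster 19 had 12.8% in IPP, above 11.2% in DUOD and 11.4% in JEJ, and cluster 21 had 8.72% in NoPP, above 8.23% in IPP. Among B-like cells, cluster 3, with no dividing marker among those counted, had 18.3%, and clusters 7 and 5, with 8 and 13 dividing markers, had 14.4 and 13.8%.

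**Figure D2:**
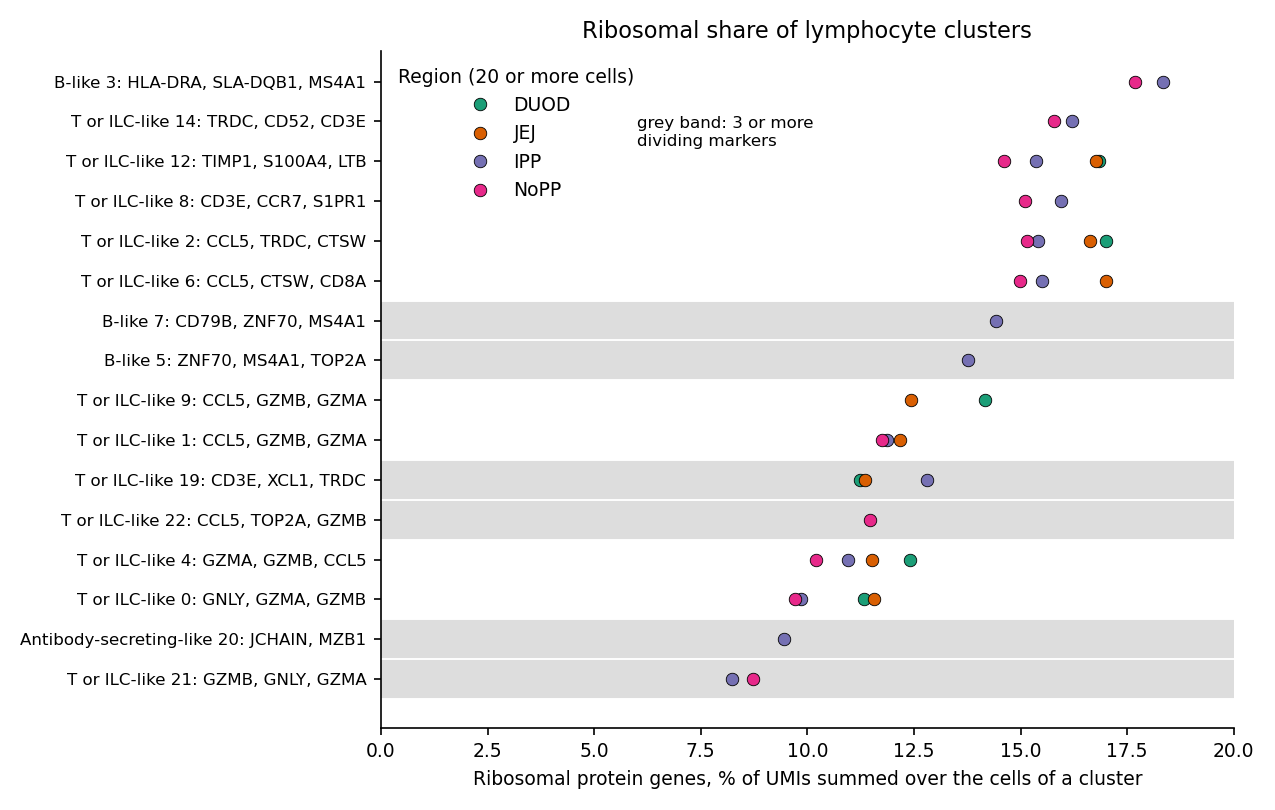
Ribosomal share (percent of UMIs) of the lymphocyte clusters, 1 dot for each region with at least 20 cells of the cluster; names give the cluster's number and leading genes, and grey bands mark clusters with 3 or more dividing markers. Cluster 0 (GNLY, GZMA, GZMB) lies between 9.72 and 11.6%, cluster 8 (CCR7, S1PR1) at 15.1 and 16.0%, and B-like cluster 3 at the top with 18.3% in IPP.

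A pair of T or ILC-like clusters of IPP was compared gene by gene, chosen after their shares had been seen. Genes were compared where they reached 50 CPM in either group, which RPL3L and RPL10L did in no comparison. Cluster 8 (213 cells) had 16.0% and cluster 0 (431 cells) 9.86%, a ratio of 1.62 (interval of a ratio of Poisson counts 1.61 to 1.63). RPSA, a small-subunit protein also known as the laminin receptor, was at 4012 CPM in cluster 8 and 1537 CPM in cluster 0, or 2.61-fold higher. RPLP0, the base of the ribosomal stalk, was 2.03-fold higher. Of 44 members compared, 3 were past 2-fold higher and none past 2-fold lower; over all 3004 genes compared 11.0% were past 2-fold higher and 14.5% past 2-fold lower. At 1.5-fold, 30 of the 44 members were higher and none lower, beside 20.6% of all genes higher. The 3 lowest ratios belonged to RPS19BP1 at 0.812, RPL26L1 at 0.902 and RPL7L1 at 1.10, none of them a core subunit protein. The median log2 ratio of the members was 0.76, and that of all genes -0.03. RACK1, a scaffold bound to the small subunit, and the elongation factor gene EEF1B2 were 2.61- and 2.76-fold higher in cluster 8.

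The OLFM4 cluster differed from enterocyte-like cells across nearly the whole family. In JEJ the ratio of the shares was 2.80 (2.78 to 2.83), and 37 of 44 members were past 2-fold higher, none past 2-fold lower; of all 2892 genes compared, 24.2% were past 2-fold higher and 18.5% lower. RPL22 stood at 1934 CPM in the cluster and 506 CPM in enterocyte-like cells, a ratio of 3.82 (3.52 to 4.15). RPL5, which carries 5S ribosomal RNA into the large subunit, was at 2620 against 686 CPM, also 3.82-fold. RPS4X, a small-subunit protein encoded on the X chromosome, was at 2694 against 729 CPM, 3.70-fold. The 7 members that missed 2-fold were RPS16 at 1.92, RPS21 at 1.87, RPS15 at 1.82 and 4 genes outside the core subunits, RPL7L1 at 1.97, RPL36AL at 1.94, RPL26L1 at 1.26 and RPS19BP1 at 1.10. RPL7 was 3.48-fold higher. The median log2 ratio was 1.55 for the members and 0.23 for all genes.

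In NoPP, where the OLFM4 cluster held 11 cells, the ratio of the shares was 3.33 (3.27 to 3.40). There 41 of 44 members were past 2-fold higher and none lower, against 36.9% higher and 17.1% lower among the 3250 genes compared. RPL3, which lines the entry to the peptide-bond centre, was highest by ratio, with 1984 against 407 CPM, 4.87-fold. RPS3A followed at 4.76-fold, the RPL17-C18orf32 locus at 4.75-fold, RPLP0 at 4.58-fold and RPS4X at 4.46-fold. RPS16 at 1.93, RPS21 at 1.78 and RPL26L1 at 1.68 were the members under 2-fold, and all 3 had also missed it in JEJ. The 2 comparisons use different cells, but the enterocyte-like cells of each also enter the comparisons between regions. With cells held to at most 10% mitochondrial UMIs, which leaves 5 cells of the OLFM4 cluster and 12 enterocyte-like cells in NoPP, the ratio there was 1.86 and 15 members were past 2-fold higher. The share of all genes past 2-fold in those few cells is not given here.

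**Figure D3:**
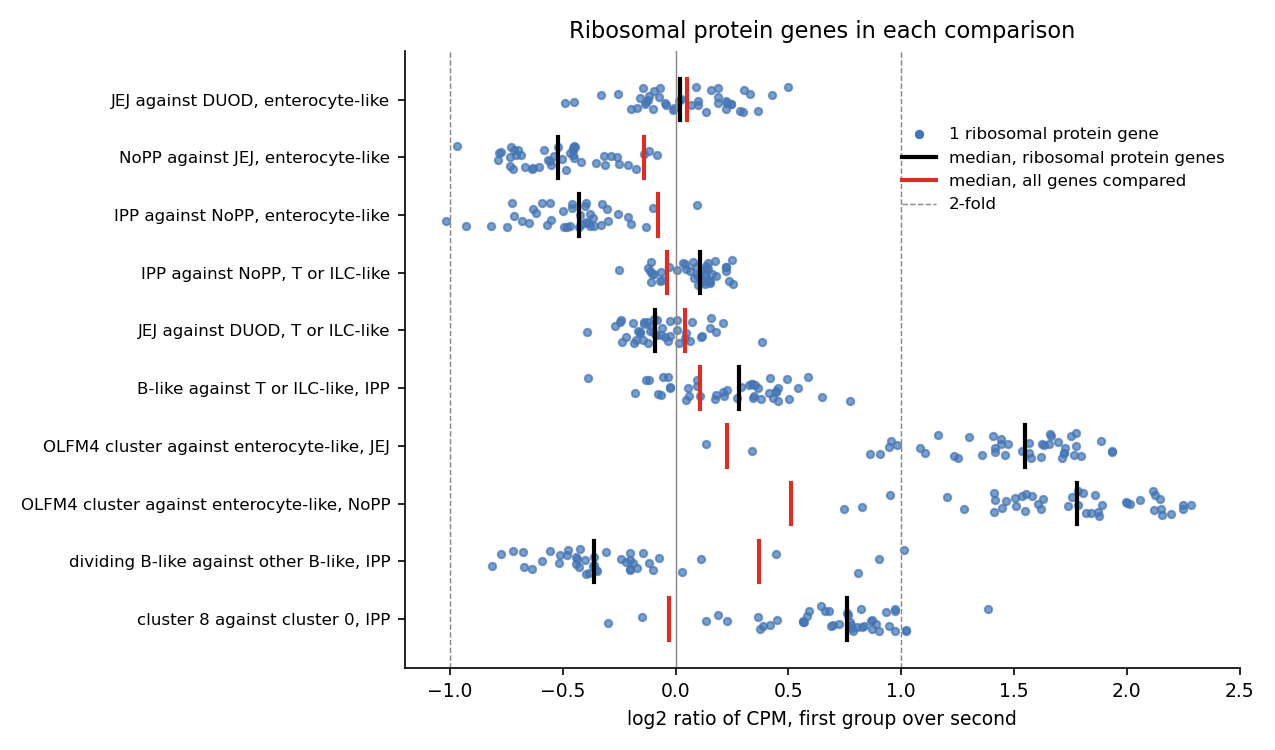
Log2 ratio of CPM (horizontal axis) of each compared ribosomal protein gene in each comparison, 1 point per gene, with the median of the members and of all genes compared. The members sit to the right of all genes in both OLFM4 comparisons and in cluster 8 against cluster 0, and to the left for NoPP against JEJ enterocyte-like cells and for dividing B-like cells.

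Along the gut, at the 25% mitochondrial limit, enterocyte-like cells carried a lower ribosomal share in the ileum than in the duodenum and jejunum. At a 10% limit this held for IPP only, and NoPP had the highest share of the 4 regions, 7.07% against 4.88% in DUOD. For JEJ against DUOD the ratio of the shares was 0.992 (0.985 to 0.998). None of 43 members (RPL10A lay under 50 CPM) was past 2-fold in either direction, while 10.8% of the 2519 genes compared were past 2-fold higher and 11.2% lower. A ratio above 1 was found for 23 members and below 1 for 20, beside 53.3% of all genes above 1. Some members did move apart by less than 2-fold. RPS6, the small-subunit protein phosphorylated by S6 kinase, had 615 CPM in the duodenal and 868 CPM in the jejunal cells, 1.41-fold (1.34 to 1.48). RPL3 was 1.35-fold higher in JEJ, at 671 against 498 CPM. RPS20 went the other way, with 3224 CPM in duodenal against 2295 CPM in jejunal cells, a ratio of 0.712, and RPSA had a ratio of 0.732.

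From JEJ to NoPP the members were lower together. The share in NoPP was 0.711 times that in JEJ (0.700 to 0.722). All 43 members compared had a ratio below 1, where 43.1% of all genes had one above 1. None was past 2-fold, against 10.2% of the 2543 genes higher and 12.8% lower; at 1.5-fold, 17 members were lower and none higher, where 26.1% of all genes were lower. RPS23, a protein of the decoding centre, had 799 CPM in NoPP against 1564 in JEJ, a ratio of 0.511 (0.463 to 0.563). RPS12 had 1324 CPM in NoPP against 2279 in JEJ, a ratio of 0.581. At the other end RPS14 was at 604 and 570 CPM, a ratio of 0.945 whose interval of 0.837 to 1.06 includes 1, and RPS27 had 0.908. The median log2 ratio was -0.52 for the members and -0.14 for all genes.

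IPP enterocyte-like cells were lower still than those of NoPP, the neighbouring ileum, at 0.731 times the share (0.719 to 0.743). Among 41 members (RPL10A, RPL7L1 and RPS19BP1 lay under 50 CPM), 40 had a ratio below 1, where 42.6% of all genes had one above 1. RPS6 was the only one past 2-fold, at 313 CPM in IPP and 634 CPM in NoPP, a ratio of 0.494 (0.435 to 0.562). Of the 2298 genes compared, 1.78% were past 2-fold higher and 3.18% lower. No member was past 2-fold lower at a minimum of 2000 UMIs or with the members used in clustering. At the 10% mitochondrial limit 20 were, in 19 against 12 cells, and the share of all genes past 2-fold there is not given here. RPS14 was at 300 against 570 CPM, 0.525, and RPL35 had a ratio of 0.567; at 1.5-fold, 11 members were lower, beside 13.1% of all genes. RPL36AL at 1.07, RPL23 at 0.934 and RPL26L1 at 0.914 had the highest ratios. The median log2 ratio was -0.43 for the members and -0.08 for all genes. The NoPP enterocyte-like cells enter both ileal comparisons, and the JEJ cells enter 2 of the 3, so the 3 sets of ratios are not separate evidence.

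The regional order in enterocyte-like cells moved with the mitochondrial limit. At a minimum of 2000 UMIs the order was kept, with 4.52, 4.5, 2.31 and 3.13% from DUOD to NoPP. In each region these cells formed deep and shallow clusters. In IPP the deep cluster (147 cells, median 16596 UMIs, 17.9% mitochondrial) had 2.29% and the shallow one (16 cells, median 1921 UMIs, 1.81% mitochondrial) 5.10%. In NoPP the same 2 clusters had 2.98% (26 cells) and 6.58% (13 cells), and in JEJ the deep and shallow clusters had 4.46 and 4.77% (106 cells each). In DUOD the 2 deep clusters had 4.10 and 5.02% and the shallow one 6.04%. When only cells with at most 10% mitochondrial UMIs were used, the share was 4.58% in JEJ (113 cells), 7.07% in NoPP (12 cells) and 3.71% in IPP (19 cells), so NoPP stood at 1.54 times JEJ and the direction of that comparison turned; IPP was the lowest of these 3 under both limits. With the NoPP barcodes that were richer in another library and the predicted doublets kept, NoPP had 154 enterocyte-like cells in place of 42. The NoPP value was then 3.57%, NoPP stood at 0.796 times JEJ, and IPP at 0.66 times NoPP. The NoPP enterocyte-like values thus rest on the minority of such barcodes that passed these 2 filters. The part of depth and mitochondrial content in the regional difference was not tested further.

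Between regions, T or ILC-like cells had ratios near 1. The class mixes clusters in different proportions: cluster 8 held 213 of 1573 cells in IPP and 53 of 1724 in NoPP, and cluster 1 held 201 and 442, so the ratios hold composition and level together. IPP was 1.06 times NoPP (1.06 to 1.07), and no member of 44 was past 2-fold, where 0.586% of the 2731 genes compared were past it higher and 0.293% lower. RPL10 at 6122 CPM in IPP and 5135 CPM in NoPP had a ratio of 1.19, as did RPL7. RPS14 went against the family, with 2262 CPM in IPP and 2692 CPM in NoPP, a ratio of 0.840. JEJ was 0.962 times DUOD (0.956 to 0.967), again with no member of 44 past 2-fold, beside 0.937% of 2774 genes higher and 0.505% lower; at the 10% mitochondrial limit this ratio was 1.03. RPS19BP1 at 1.30 and RPL10A at 1.16 were highest in JEJ against DUOD, and RPL7L1 at 0.762 and the RPL17-C18orf32 locus at 0.830 lowest.

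B-like cells exceeded T or ILC-like cells of the same IPP library by 1.16 times (1.157 to 1.163), with 34 of 44 members above 1, beside 54.8% of all genes. RPS20, a small-subunit protein, stood out at 10674 CPM in B-like and 6254 CPM in T or ILC-like cells, 1.71-fold (1.69 to 1.73). RPL7L1 was 1.50-fold higher. RPL23 was on the other side, at 3516 CPM in B-like and 4606 CPM in T or ILC-like cells, a ratio of 0.763, with RPLP2 at 0.882. No member was past 2-fold in either direction, where 16.9% of the 3184 genes compared were past it higher and 15.3% lower. At 1.5-fold, 3 members were higher, beside 29.2% of all genes.

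Dividing B-like cells gave a smaller part of their UMIs to the family than the other B-like cells of IPP. The 691 cells of the clusters with dividing markers had 13.9% and the other 455 cells 18.3%, a ratio of 0.759. Of 44 members, 38 had a ratio below 1, where 66.0% of all genes had one above 1. RPL23 was at 2860 against 5030 CPM (0.569), RPS27 had 0.585 and RPL10 was at 5515 against 9096 CPM (0.606). The single member past 2-fold was higher: RPL7L1, a paralogue of RPL7 that acts in ribosome assembly in the nucleolus, at 170 against 84.4 CPM, 2.02-fold (1.77 to 2.32). No member was past 2-fold higher with doublets and shared barcodes kept or without the most counted genes. RPL26L1 at 1.87 and RPS19BP1 at 1.75 came next, so the 3 highest were all outside the core subunits. Past 2-fold stood 22.4% of 2989 genes higher and 10.1% lower; at 1.5-fold 7 members were lower and 3 higher, beside 16.4% and 38.8% of all genes. One of the dividing clusters also had MZB1 and POU2AF1, markers of antibody-secreting cells, among its leading genes, and the deepest of them had a median of 11887 UMIs in IPP against 5892 in the non-dividing cluster; their part in the result was not tested.

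The 2 subunits kept nearly the same proportion everywhere. Large-subunit genes made up 45.5 to 51.6% of the UMIs on both subunits over the classes and regions, with 45.5 to 46.8% in enterocyte-like cells and 49.0 to 49.3% in T or ILC-like cells. The 10 members holding the most UMIs were, among the small-subunit genes, RPS20 (5.80% of all ribosomal UMIs), RPS12 (5.10%), RPS15 (3.98%), RPS27 (3.04%) and RPS16 (3.01%), and, among the large-subunit genes, RPL10 (4.60%), RPL37 (3.53%), RPLP0 (3.26%), RPL6 (3.05%) and RPL7A (3.04%). RPS20 was at 3224, 2295, 1575 and 2029 CPM in enterocyte-like cells of DUOD, JEJ, IPP and NoPP and at 6685, 5999, 6254 and 5701 CPM in T or ILC-like cells. RPL22 was at 474, 506, 259 and 365 CPM in the enterocyte-like and at 2334, 2292, 2451 and 2242 CPM in the T or ILC-like cells, with the regions in the same order. For both genes every T-cell value was above every enterocyte value over the 4 regions. How many of all genes were apart in this way was not counted.

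Over the 22 groups of 1 class in 1 region with at least 20 cells, most members followed the sum of the others. Across those groups the log2 level of RPL22 correlated with the sum of the other members at r = 0.994 and that of RPS3A at r = 0.992, against r = 0.759 for RPL36AL; this is a description over groups that share libraries. For 40 members with at least 20 UMIs in each group, the part of the ribosomal UMIs that each took could be followed. RPL36AL varied most, from 0.437% in B-like cells of IPP to 1.98% in goblet-like cells of IPP, a range of 2.18 on the log2 scale. RPL3 ran from 0.706% in myeloid-like cells of NoPP to 1.89% in goblet-like cells of IPP.

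The myeloid-like cells of NoPP formed one end of other wide ranges too. They had the lowest part for RPS18 (1.31%, against 3.17% in the OLFM4 cluster), for RPL7A (1.67%, against 4.03% in enteroendocrine-like cells of DUOD) and for RPS16 (1.97%, against 4.70% in enterocyte-like cells of IPP). They had the highest part for RPL39, 5.21%, where antibody-secreting cells of IPP had 2.21%. RPL34 and the RPS10-NUDT3 locus varied least, each over 0.46 on the log2 scale.

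**Figure D4:**
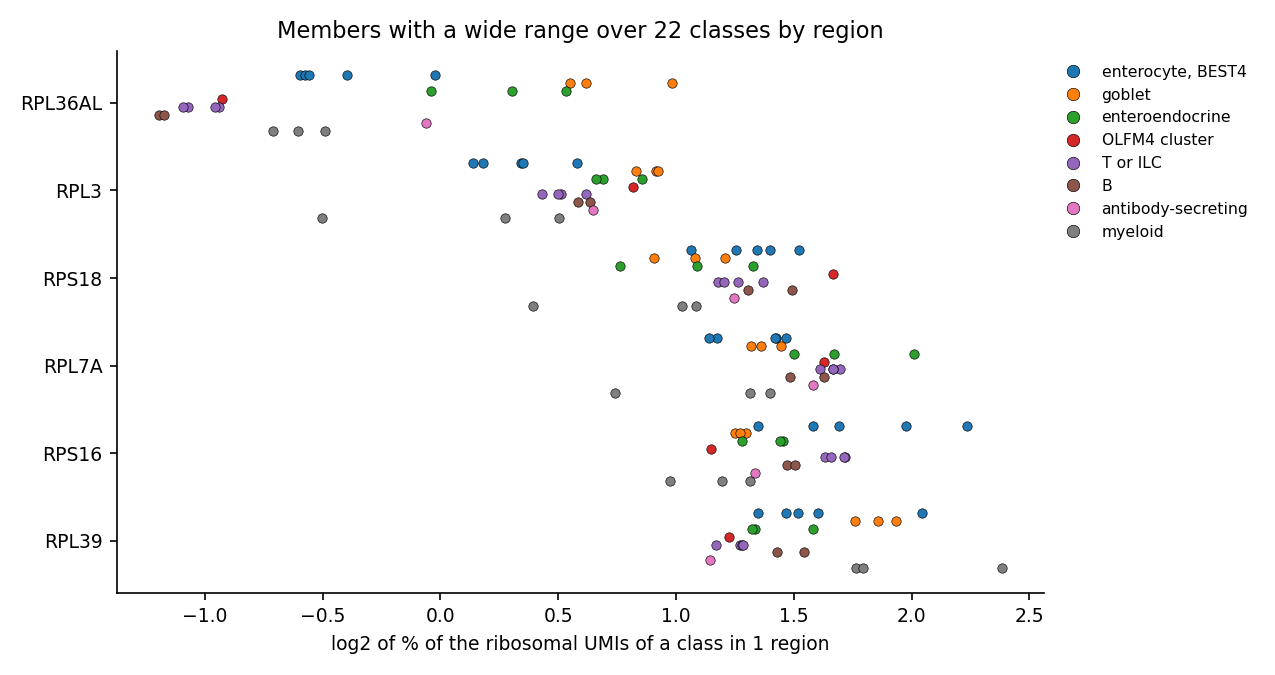
Log2 of the percentage of all ribosomal UMIs taken by 6 members with a wide range, 1 dot for each of 22 groups of a class in a region, coloured by class. RPL36AL spans 0.437 to 1.98%, and the NoPP myeloid-like cells are at one end for RPL3, RPS18, RPL7A, RPS16 and RPL39.

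The paralogue RPL36AL had a smaller contrast between lymphocytes and epithelium than its parent gene. RPL36AL, an intronless copy of RPL36A, was at 299, 341, 229 and 214 CPM in enterocyte-like cells of DUOD, JEJ, IPP and NoPP. In goblet-like cells it was at 455, 503 and 451 CPM (JEJ, IPP, NoPP), in T or ILC-like cells at 659, 694, 677 and 581 CPM, and in antibody-secreting cells of IPP at 906 CPM, the highest of the 22 groups. RPL36A itself, named by the table, was at 278, 366, 121 and 214 CPM in enterocyte-like and at 1296, 1250, 1233 and 1265 CPM in T or ILC-like cells, a wider gap. RPL3L, the striated-muscle form of RPL3, had 49 UMIs in all kept cells, and RPL10L, the testis form of RPL10, had 0 of 46636319, which allows up to 0.0643 CPM. RPL26L1, RPL7L1 and RPS19BP1 had 4364, 4308 and 4157 UMIs. RPL10A, a large-subunit protein, had 0.0737% of the ribosomal UMIs.

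Some genes of the family were identified by the name table alone. RPLP1, which with RPLP2 forms the stalk, was at 2641, 2688, 1161 and 1701 CPM in enterocyte-like cells of DUOD, JEJ, IPP and NoPP, and at 10055, 10109, 9940 and 9322 CPM in T or ILC-like cells; B-like cells of IPP, at 9347 CPM, were below the T or ILC-like cells there. RPS27A, made as a fusion with ubiquitin, was at 1339, 1431, 872 and 1074 CPM against 4569, 4417, 4747 and 4086 CPM. With the name table's genes added the share over all kept cells was 14.6% in place of 10.1%. RPS27L, a p53-responsive paralogue of RPS27, had the opposite order between enterocyte-like and T or ILC-like cells. It was at 302, 549, 276 and 263 CPM in the former and at 156, 153, 152 and 142 CPM in the latter. The OLFM4 cluster of JEJ had 370 CPM and B-like cells of IPP had 245 CPM. Goblet-like and enteroendocrine-like cells of IPP, at 103 and 115 CPM, were below the T or ILC-like cells there. Each T-cell value of RPS27L was below each enterocyte value, and how many of all genes were so ordered was not counted.

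Other genes of protein synthesis were counted in lists. The mitochondrial ribosomal protein list was taken by symbol alone, every MRPL or MRPS followed by a digit. Membership, as for MRPS36, therefore does not establish a place in that ribosome. In the OLFM4 cluster of JEJ against enterocyte-like cells, 14 of 17 elongation and tract-bearing genes were past 2-fold higher, among them PABPC1 at 3.91 and EEF1B2 at 3.37, and TPT1, which bears the tract as well, had 1.13. Of 10 genes of ribosome making in the nucleolus, 9 were past 2-fold higher, with NCL at 6.38, NPM1 at 5.34 and the rRNA methyltransferase gene FBL at 6.57. Of 16 initiation factors 4 were, of 4 growth-signalling genes none, and of 42 mitochondrial ribosomal protein genes 12, with 2 lower. Beside the 24.2% of all genes past 2-fold higher, the initiation and mitochondrial counts are near the background. The median log2 ratio was 1.29, 1.76, 0.75, 0.64 and 0.67 in these lists, in that order. NAP1L1, a histone chaperone gene that bears the tract, was 11.1-fold higher, at 431 against 38.9 CPM, and MRPS36 was lowest at 0.405. In NoPP the same lists had 15 of 18, 10 of 12, 6 of 15, 2 of 4 and 19 of 40 genes past 2-fold higher, beside 36.9% of all genes, a share to which the initiation count is close. Past 2-fold lower there were VIM, of the tract list, and MRPS36, of the mitochondrial list.

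In the dividing B-like cells the mitochondrial ribosome and the cytosolic one went apart. Of 49 mitochondrial ribosomal protein genes, 17 were past 2-fold higher and none lower, beside 22.4% and 10.1% of all genes, with a median log2 ratio of 0.86, led by MRPL58 at 3.10-fold and MRPL4 at 3.02-fold; all genes had a median of 0.37 and the 44 cytosolic members -0.36. The elongation and tract-bearing genes had a median of -0.13, with EEF1B2 at 0.625 and TPT1 at 0.629, while NCL was 1.70-fold higher. The filament gene VIM, which bears the tract too, had 0.437 and DDIT4, an inhibitor of mTORC1, 0.442. For NoPP against JEJ enterocyte-like cells, 1 of 16 elongation and tract-bearing genes was past 2-fold higher and 1 lower, and 3 of 25 mitochondrial ribosomal protein genes were lower, beside 10.2% of all genes higher and 12.8% lower, with medians of -0.42 and -0.54. The gene past 2-fold higher was the filament gene VIM, with 61 UMIs in NoPP and 3 in JEJ, a ratio of 135 (44.0 to 672), and MRPS7 was lowest at 0.319. For IPP against NoPP enterocyte-like cells the 5 lists had no gene past 2-fold higher and 1 lower, NCL at 0.455. In cluster 8 against cluster 0, no gene of 25 in the mitochondrial list was past 2-fold, with a median of -0.03, and 4 of 18 elongation and tract-bearing genes were higher, with a median of 0.77, beside 11.0% of all genes higher and 14.5% lower. DDIT4 was 8.51-fold and VIM 7.90-fold higher, and SESN1, another brake on mTORC1, had 0.345. In B-like against T or ILC-like cells NAP1L1 was 3.06-fold and EIF2S1 2.90-fold higher, with EIF3I lowest at 0.529.

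Among 557 other genes at 50 CPM or more in each of the 22 groups, the 8 whose log2 levels correlated best with the summed ribosomal CPM carry no symbol in the files or the name table; the first 2 are ENSSSCG00000013889 at r = 0.995 and ENSSSCG00000035811 at r = 0.993. The first with symbols, named after their values were seen, were KXD1 and RACK1, both at r = 0.985, and SNRPD2 at r = 0.983. The most opposite genes were ATOX1 at r = -0.855, PRR13 at r = -0.844 and SEC62 at r = -0.828.

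Barcodes outside the limits were described for the same genes. Among all barcodes that met the UMI and gene limits, those with 5 to 10% mitochondrial UMIs had a ribosomal share of 7.55, 11.7, 14.1 and 11.2% from DUOD to NoPP as ordered above, and those with 20 to 25% had 4.02, 4.48, 5.99 and 6.98%. Below 5% it was 4.95, 7.44, 14.2 and 7.71%, so the lowest bin was not the highest in ribosomal share except in IPP. At 60 to 100% it was 0.574, 0.490, 0.551 and 0.517%. Of the non-mitochondrial UMIs of those last barcodes, 2.22, 1.75, 1.84 and 1.67% were ribosomal. Barcodes under 100 UMIs, which hold mostly free RNA, had 1.36, 3.30, 6.18 and 4.07%. The enterocyte-like values of IPP and NoPP, 2.33 and 3.19%, lie below the free-RNA values of their own libraries. Mitochondrial UMIs made up 68.9, 42.0, 36.8 and 38.5% of that free RNA, from DUOD to NoPP. Of non-mitochondrial UMIs, free RNA had 4.36, 5.68, 9.77 and 6.62%. Enterocyte-like cells had 5.31, 5.20, 2.83 and 3.76% on that measure, so JEJ lay below its free RNA as well. The part of free RNA in the class differences was not tested.

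**Figure D5:**
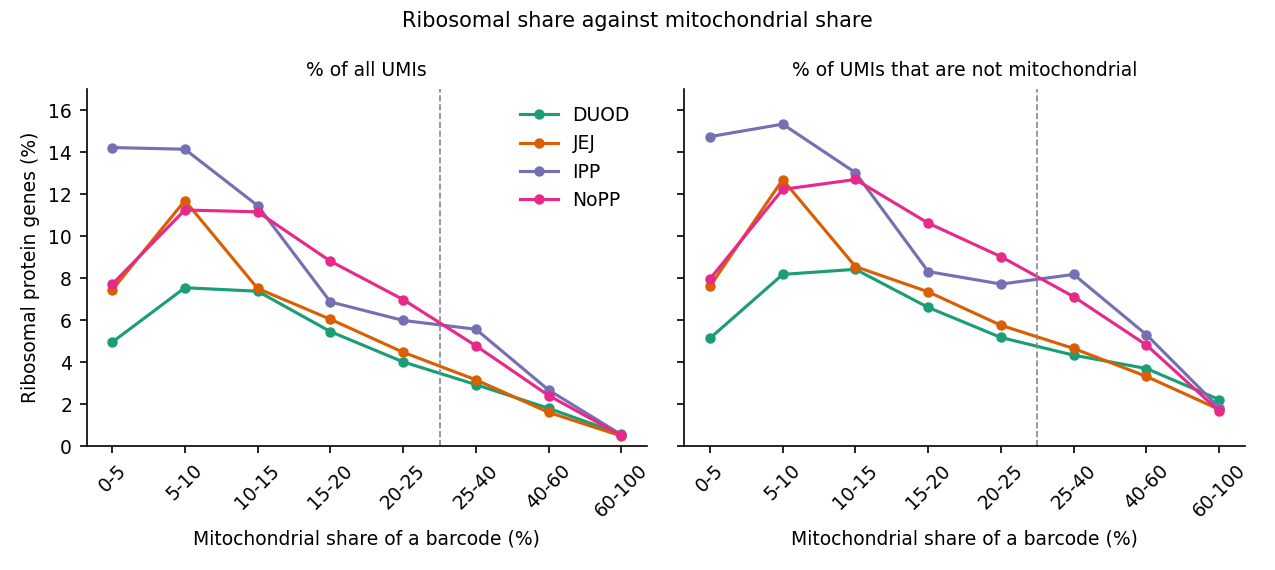
Ribosomal share (percent of all UMIs and of non-mitochondrial UMIs) of barcodes grouped by their mitochondrial percentage, for the 4 regions; the dashed line marks the limit of 25% used for kept cells. The share of all UMIs is 7.55 to 14.1% in the bin of 5 to 10% and 0.490 to 0.574% in the bin of 60 to 100%.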

How the data were processed

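The authors deposited raw UMI count matrices, 1 per region, made with Cell Ranger, version 4.0.6 per the submitters' processing notes; the genome build and the treatment of reads matching several loci are not given in the sources used here. Members and gene lists were chosen with earlier results of these data known. Of 25880 features, 17733 had a symbol, 977 were named by a gene name table and 7170 had no name. Barcodes were used from 1000 UMIs and 500 genes upward and up to 25% mitochondrial UMIs. Doublets were called with the scanpy 1.11.5 implementation of Scrublet: its automatic threshold marked 33 of 7182, so an expected rate of 0.8% per 1000 cells was applied and 137 were called. Cells were clustered (leidenalg 0.10.2) without mitochondrial genes and without ribosomal protein genes that carried a name. The naming rule was chosen with the clusters in view. Counts were summed per class and region, and shares have exact Clopper-Pearson intervals and ratios exact conditional intervals (scipy 1.17.1), both tested on simulated data. With 1 matrix per region no test between regions was made. Genes were compared at 50 or more CPM in either group, and past 2-fold was counted. Named genes were the 10 members with the most UMIs, the 8 with the widest range, and per comparison the members of highest and lowest ratio. Values of some genes this rule takes are not reported here.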

Additional observations from a re-analysis of the deposited data

How the results depend on the processing

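No paired analysis was possible because the 4 samples of each region are pooled in 1 matrix. Of the settings, adding the genes named by the table and leaving mitochondrial and the 10 most counted other genes out of the total, were chosen after seeing the data, as was cluster 8 against cluster 0. The cause of each difference was not tested. In the order DUOD, JEJ, IPP and NoPP, the enterocyte-like share was 4.88, 4.58, 3.71 and 7.07% at a 10% mitochondrial limit, 5.31, 5.20, 2.83 and 3.76% of non-mitochondrial UMIs, 4.33, 4.28, 2.22 and 3.06% over the core subunit genes, 6.65, 6.55, 3.34 and 4.58% with the table's genes, and 7.12, 6.99, 4.26 and 5.57% without the most counted genes. It was 2.31% in IPP and 3.13% in NoPP at 2000 UMIs, 4.33% in JEJ, 2.52% in IPP and 3.88% in NoPP as a mean of cells, and 2.36% in IPP and 3.57% in NoPP with doublets and shared barcodes kept. The T or ILC-like share, in the same order of regions and settings, was 14.3, 14.8, 14.7 and 13.6%, then 15.7, 14.9, 14.8 and 14.0%, then 13.3, 12.8, 12.6 and 11.9%, then 20.1, 19.4, 19.1 and 18.1%, and then 17.7, 16.8, 16.6 and 15.7%. It was 14.0, 13.5, 13.3 and 12.6% at 2000 UMIs, 13.7, 12.8, 12.8 and 12.0% as a mean of cells, and 13.2% in IPP and 12.4% in NoPP with doublets and shared barcodes kept. The B-like share of IPP was 15.6% at the 10% limit, 16.8% of non-mitochondrial UMIs, 15.4% as a mean of cells, 14.7% over core genes, 15.2% with doublets kept, 21.8% with the table's genes and 18.3% without the most counted genes. In all, 2 ratios of shares turned at the 10% limit, NoPP against JEJ enterocyte-like cells to 1.54 and JEJ against DUOD T or ILC-like cells to 1.03. Of the counts of members past 2-fold, dropping the CPM minimum gave 1 higher for JEJ against DUOD enterocyte-like cells, 1 lower for NoPP against JEJ and 2 lower for IPP against NoPP, 1 higher for IPP against NoPP T or ILC-like cells, and 1 lower for the OLFM4 cluster of JEJ. A 1.5-fold limit gave 17 lower for NoPP against JEJ and 11 lower for IPP against NoPP enterocyte-like cells, 3 higher for B-like against T or ILC-like cells, and 3 higher and 7 lower for dividing B-like cells. The 10% mitochondrial limit gave 3 higher for NoPP against JEJ, 20 lower for IPP against NoPP enterocyte-like cells, and 15 higher for the OLFM4 cluster of NoPP. Shares of all genes past 2-fold under that limit are not given here. A minimum of 2000 UMIs gave 1 lower for NoPP against JEJ and 0 lower for IPP against NoPP. Clustering with the members gave 0 lower for IPP against NoPP, and keeping doublets and shared barcodes gave 4. For dividing B-like cells the count higher was 0 with doublets kept and 0 without the most counted genes. Small classes, such as the 11 cells of the OLFM4 cluster in NoPP, limit the precision.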
